A study of Homo sapiens with 42 samples.

Results

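The events described here are 2762 splicing events that the authors' deposited tables type as TSS|A3SS, of 77968 distinct events listed over 8 comparison tables. All events of that type were taken from all 8 tables, and they lie in 1982 genes. A3SS is the usual short form of an alternative 3' splice site, but no source used here says what the TSS prefix means. Each event carries a percent spliced in (PSI) per library, the percentage of transcripts estimated to use 1 of the alternative forms, and a p-value for treated against control libraries.

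The study sequenced strand-specific mRNA libraries from MM.1S and INA-6, 2 established lines of multiple myeloma cells, in 14 groups of 3 libraries, 42 in all. In each line, cells kept 24 h without IL-6 (interleukin-6, a growth and survival factor of myeloma cells) were compared with cells kept 24 h with it. All other groups carried Cas9 and 1 lentiviral guide RNA, were selected with puromycin for 2 days and received IL-6, so the control guide sgEGFP shares every one of these features with the guides it was compared with. In MM.1S the guides were sgPOU2AF1, sgELL2, sgSRSF1 and sgHNRNPL, and in INA-6 they were sgPOU2AF1 and sgELL2. The labels call these knockdowns, although Cas9 cuts DNA, and give 24 h of IL-6 for the MM.1S guide groups but no IL-6 time for those of INA-6. In MM.1S, sgPOU2AF1 and sgELL2 each had their own 3 sgEGFP libraries, whereas sgSRSF1 and sgHNRNPL shared 3, and the INA-6 guides also shared 3. The column headings of the INA-6 guide tables name MM.1S, but the sgEGFP values there correlated at 0.993 and 0.994 with the IL-6-treated INA-6 libraries and at 0.954 and 0.962 with the IL-6-treated MM.1S ones, across 404 to 943 events. The tables' own names say INA-6, and they are treated here as such. No gene expression values were used, so neither the level of a targeted gene nor the markers of either cell line were checked.

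A 3' splice site is the end of an intron, where the spliceosome recognises a branch point, a pyrimidine-rich stretch bound by U2AF and a final AG dinucleotide. When several AGs can be used, the chosen one sets where the next exon begins. SRSF1, an SR protein, binds exonic sequence and is known to promote the use of nearby splice sites, while HNRNPL, a heterogeneous nuclear ribonucleoprotein, binds CA-rich RNA and can repress or promote splicing. POU2AF1 is a B cell coactivator of POU2F1 and POU2F2, and ELL2 is a transcription elongation factor known in plasma cells for the processing of immunoglobulin heavy chain RNA.

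The structure of the events did not bear out a name of alternative first exons. The reference transcript in the event's name was found in the GENCODE 29 annotation for 2445 of 2762 events (88.5%). In 1294 of these (52.9%) the event lay in the first intron of that transcript, and in 1079 (44.1%) in its last intron. Only 4 events lay in an internal intron, 5 in the only intron, and 63 could not be placed. The alternative segment was the stretch between a pair of 3' splice sites at the downstream end of the intron in 2444 of 2445 events. It was the 5' part of a longer downstream exon in 2327 of 2382 placed events (97.7%). In the other 55 (2.31%) the exon of the reference transcript ended at or before the end of the segment. Such a segment is said here to hold a separate exon, which can be shorter than the segment. The upstream splice junction was annotated in 2411 of 2445 events (98.6%) and the downstream one in 2324 (95.1%). Another annotated transcript began inside the region in 707 of the 1294 first-intron events (54.6%) and in 184 of the 1079 last-intron events (17.1%). They are therefore called TSS|A3SS events here, and are read as a choice between 3' splice sites near either end of a transcript.

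The first-intron segments lay most often in 5' untranslated regions (536 of 1294, 41.4%). Another 293 (22.6%) were wholly coding, 157 (12.1%) spanned coding and untranslated sequence, and 302 (23.3%) lay in non-coding transcripts. The last-intron segments were coding in 312 of 1079 events (28.9%), spanned coding and untranslated sequence in 292 (27.1%), and lay in the 3' untranslated region in 112 (10.4%). The median segment length was 66 nt, with 44 nt in first introns and 104 nt in last introns, and the range was 1 to 8704 nt. A length of exactly 3 nt was found in 246 events (8.91%), and 434 events (15.7%) were at most 12 nt long.

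The shortest segments show the choice directly. The following 29-base stretches of spliced transcript (GRCh38, GENCODE 29 transcripts) are printed because each carries a segment whose use differed in a comparison described further on. Capitals mark the segment that is kept when the upstream 3' splice site is used, and lower case the exons around it.
CTNND1 (chr11:57816297-57816299, plus strand): aacacccttgatgCAGaagatttagcacc
HNRNPR (chr1:23341018-23341020, minus strand): ccgctctgccctgCAGcataataaaatgg
PTBP2 (chr1:96813273-96813275, plus strand): ttaagttttttcaAAGagatcacaaaatg
REPIN1 (chr7:150371228-150371230, plus strand): tgcagtctccaggCAGaggaagaaccgat
ZSCAN5A (chr19:56222324-56222326, minus strand): ccaaagagtcccaCAGatctggtgagagc
TRMT10A (chr4:99559351-99559361, minus strand): ttcagctcgTTGTTTTTCAGaggcaccaa
In the first 5 the segment is itself an NAG, so that the longer and the shorter form differ by 3 bases. Of the 219 3-nt segments with a sequence, 164 (74.9%) read CAG, 28 (12.8%) AAG, 26 (11.9%) TAG and 1 GAG. The 11-nt TRMT10A segment ends in CAG after a run of T.

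The longer segments are shown at both ends, because the larger differences in PSI lay mostly there. For each, the first line is the 30 bases across the junction to the upstream 3' splice site and the second the 30 bases across the downstream 3' splice site, with segment bases in capitals.
DNAJB9 (chr7:108572899-108574646, plus strand), upstream: gagagattgcagaagCATATGAAACACTCT
DNAJB9, downstream: GTATTTGTTTCCTAGgagcaagtgttcctg
POLR2H (chr3:184362873-184363115, plus strand), upstream: tcggggctcccgtggCGACGTCATGGCAAA
POLR2H, downstream: CCCTGCCTGGGTTAGgcccccacgcattcc
SEPTIN6 (chrX:119618787-119620051, minus strand), upstream: agacccagggtcctgTTTGGGCTTCCTGTA
SEPTIN6, downstream: GCCCTTCCTTTGCAGtaatccatggctgtg
PABIR2 (chrX:134771355-134772283, minus strand), upstream: tgatctcagttcatgTTCAGATATTTTGGA
PABIR2, downstream: TGTTGATATTTCTAGgtggtgttatcaagg
SKP2 (chr5:36181818-36183839, plus strand), upstream: acctgaaactttactTGAACTTGGAGAAAT
SKP2, downstream: AATTATTGTTTACAGattagtgacaagagc
URI1 (chr19:30014887-30015535, plus strand), upstream: tcagtaacacctgagGCTTTTTCTGGAACT
URI1, downstream: CTACTTCTCTTGTAGgttttgcggctagtt
TCF19 (chr6:31158897-31159142, plus strand), upstream: gactgcgccgcgcggTGGATTCATTGCCCT
TCF19, downstream: ATCCTTGCCTTGCAGattggaggctcccca
SNX22 (chr15:64152243-64152637, plus strand), upstream: gagaaaagccacatgGTGTTCCGAGTGGAG
SNX22, downstream: GTAAACCTCCAGTAGatcaagaagctgtac
Each of these 8 segments ends in AG, as did 2319 of the 2327 segments that lengthen an exon (99.7%).

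PSI in these events behaved as the share of the longer form, the one that uses the upstream 3' splice site. In the sgEGFP libraries of MM.1S, the median PSI was 0.813% over 1035 events in which fewer annotated transcripts use the upstream site than the downstream one, 9.2% over 430 with as many, and 78.3% over 605 with more. Across these 2070 events Spearman's rho between PSI and the annotated share was 0.71, given as a description, since events of a gene share reads. A rise is therefore read as a larger share of the form with the upstream site, and a fall as a smaller one. Nested events that differ in their downstream site held the same PSI, as in TCF3 and MYEOV. A fall therefore need not mean greater use of the downstream site named in the event, where other sites lie in the same intron.

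Most events were used almost wholly one way. Of 2321 events with all 6 values in the sgSRSF1 table, 1141 (49.2%) had a control PSI of 5% or less and 93 (4.01%) one above 95%. The other 1087 (46.8%) varied between their control libraries with a median SD of 3.68 points. The 222 tested 3-nt segments had a median control PSI of 54.9%, and all 2321 events, 287 of them constant, one of 5.33%. Read counts behind each PSI were not listed, so the depth of each event is unknown and no counting error can be given.

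An event was called changed when the authors' deposited p-value was under 0.05 and its mean PSI differed by at least 10 points between 3 treated and 3 control libraries. Those p-values are not adjusted for multiple tests, and the tables for IL-6, sgPOU2AF1 and sgELL2 list, apart from events with constant PSI, only events under 0.05. The labels do not say that libraries came from separate cultures, so a p-value measures only the spread between libraries, and an exact permutation test of 3 against 3 cannot go below p = 0.1. Each library was built by 1 of 2 sequencing providers that the labels do not assign, so a provider effect cannot be told apart from the groups. All named events below were called unless stated otherwise. Treated and control values did not overlap in any of the 143 called sgSRSF1 events with 3 values in each group, nor in any of the 37 with sgHNRNPL. Absence of overlap, where given below, is therefore a description and no further evidence for a call.

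Counts of called TSS|A3SS events were small in 6 tables and larger with sgSRSF1. IL-6 in MM.1S gave 24 rises and 18 falls among 224 listed events with a p-value, beside 4.81% rises and 9.12% falls among all listed events of that table. sgPOU2AF1 in MM.1S gave 8 rises and 11 falls of 123 (5.66% and 4.58% among all events), and sgELL2 in MM.1S 7 and 10 of 90 (5.28% and 5.7%). In INA-6, IL-6 gave 6 rises and 16 falls of 157 (6.3% and 5.92%), sgPOU2AF1 9 and 15 of 173 (5.32% and 4.82%), and sgELL2 17 and 8 of 124 (5.59% and 4.56%). The complete sgSRSF1 table gave 54 rises and 92 falls of 2117 tested events in 129 genes (1.84% and 3.91% among all events). The complete sgHNRNPL table gave 23 rises and 17 falls of 2106 in 36 genes (1.12% and 0.686%).

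As a share of listed events with a p-value, the called TSS|A3SS events came in MM.1S to 18.8% with IL-6 against 13.9% over all event types, to 15.4% with sgPOU2AF1 against 10.2%, and to 18.9% with sgELL2 against 11%. In INA-6 the shares were 14% with IL-6 against 12.2%, 13.9% with sgPOU2AF1 against 10.1%, and 20.2% with sgELL2 against 10.2%. In the complete tables they were 6.9% with sgSRSF1 against 5.75%, and 1.9% with sgHNRNPL against 1.81%, the last near the background. Events typed A3SS and TSS|A5SS were called in 4.7% and 4.93% of cases with sgSRSF1, in 2.1% and 1.72% with sgHNRNPL, and in 12.8% and 12.7% with sgELL2 in INA-6. IL-6 and sgPOU2AF1 in INA-6 had a higher share in A3SS events (15% and 16.5%) than in TSS|A3SS events, and TSS|A5SS shares of 10.5% and 13.7%. In MM.1S, A3SS and TSS|A5SS events were called in 13.4% and 18.3% of cases with IL-6. The shares there were 12.5% and 13.4% with sgPOU2AF1, and 13.7% and 10.5% with sgELL2. The TSS|A5SS share was thus close to that of TSS|A3SS with IL-6 in MM.1S and sgPOU2AF1 in INA-6. These differences in share were not tested.

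**Figure D1:**
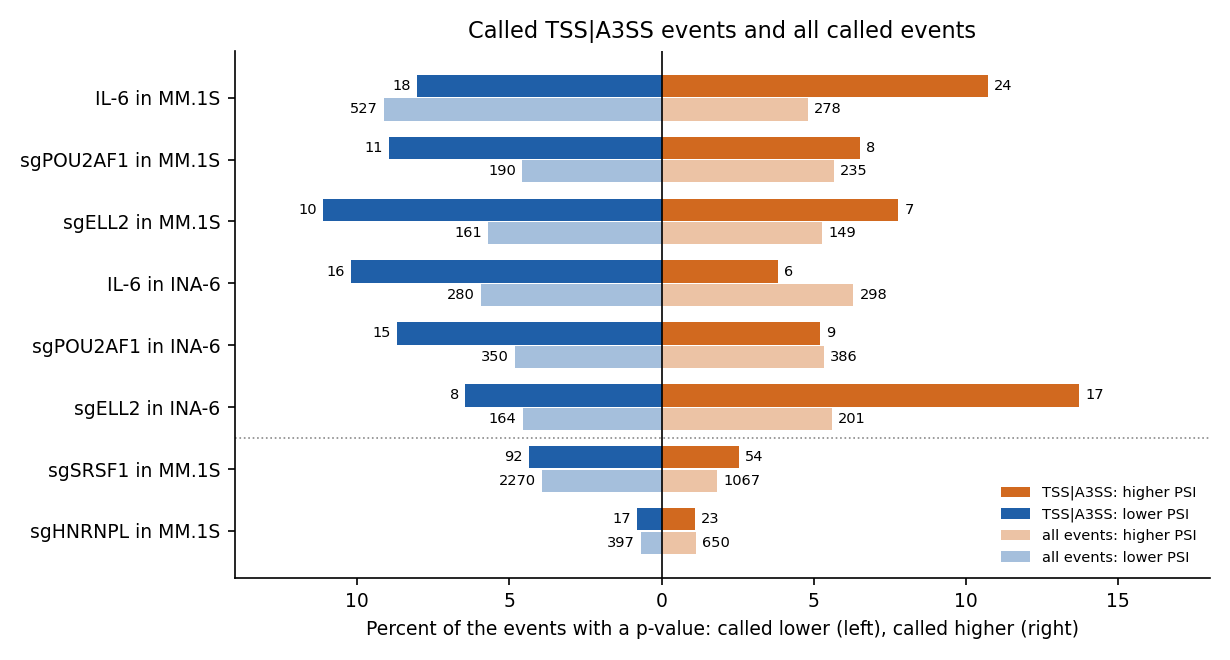
Percent of the events with a p-value that were called lower (bars to the left of 0) and higher (bars to the right) in each of the 8 comparisons, dark for TSS|A3SS events and pale for all events, with the number of called events at each bar. The first 6 tables, above the dotted line, list only events with p under 0.05, apart from constant ones, and their bars are longer than those of the complete sgSRSF1 table (54 higher, 92 lower) and sgHNRNPL table (23 higher, 17 lower).

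Nested and overlapping events inflate these counts. With sgSRSF1, 21 called events held the same PSI values as another called event of their gene, and with IL-6 in MM.1S 10 did. Over all tables there were 335 calls of 293 distinct events in 253 genes, and 35 events in 32 genes were called in at least 2 comparisons.

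With sgSRSF1 in MM.1S, the called events fell more often than they rose, and the largest differences exceeded 35 points. A model over all 62987 events of the table (limma on the logit of PSI, Benjamini-Hochberg adjustment) called 25 rises and 35 falls at an adjusted p under 0.05 and at least 10 points, beside 0.741% and 1.79% among all events. All 60 had also been called from the deposited p-values, and they lie in 52 genes.

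DNAJB9 encodes an endoplasmic reticulum co-chaperone of BiP that is induced by the unfolded protein response. The sgEGFP libraries had PSI 98, 98.2 and 98.4% for its 1748-nt last-intron segment, and the sgSRSF1 libraries 62.4, 62.3 and 62.1%. The groups did not overlap and each was tight, and PSI fell by 35.9 points (limma adjusted p = 0.000364). SEPTIN7, a cytoskeletal GTPase, has a 3-nt event that stood at 54.2, 53.5 and 53% in the controls and at 14.2, 17.3 and 15.9% with sgSRSF1. All 3 treated values were under every control, with a fall of 37.8 points (limma adjusted p = 0.0019).

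DOK3 encodes an adaptor that restrains B cell receptor signalling. Its 1268-nt last-intron segment, which holds a separate exon, had control PSI 66.7, 75 and 81.5%, against 16.7, 15.6 and 21.9% with sgSRSF1. The groups did not overlap, and the fall of 56.3 points (limma adjusted p = 0.0148) was the largest difference of the TSS|A3SS events called in this table. POLR2H, a subunit shared by the nuclear RNA polymerases, had a 243-nt 5' untranslated segment at 60, 57.8 and 71.4% in controls and at 12.5, 16.4 and 11.8% with sgSRSF1. It fell by 49.5 points (limma adjusted p = 0.0123), again without overlap. IRF3, a transcription factor of the interferon response, fell by 49.1 points with sgSRSF1 (mean 61 to 11.8%; limma adjusted p = 0.00164) and by 11.2 points with IL-6 in MM.1S (62 to 50.9%). The same 173-nt IRF3 segment, joined to the upstream exon of another transcript, fell by 39.6 points with sgSRSF1, from 33.3, 58.3 and 65.1% to 10.3, 8.82 and 19% (limma adjusted p = 0.0931). In both IRF3 transcripts the segment holds a separate exon.

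STOML1, a stomatin-like protein, had controls at 100, 84.8 and 84.8% and sgSRSF1 libraries at 30.4, 38.2 and 57.1%. That fall of 48 points was called, but its limma adjusted p was 0.197, and the SD over the treated libraries was 13.7 points. CREM, a cAMP-responsive transcription factor, fell by 20.4 points from 87.5 ± 5.94 to 67.1 ± 9.62% (SD, n = 3 each) and also missed the adjusted threshold (limma adjusted p = 0.216).

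Among events with 3 values in each group, the largest rise with sgSRSF1 was in CTNND1, which encodes p120-catenin, a binding partner of cadherins. The 3-nt segment printed above had PSI 45.5, 30 and 54.2% in controls and 81.2, 79.6 and 88.1% with sgSRSF1. The treated libraries lay above all controls, the difference was 39.8 points, and the limma adjusted p was 0.0587, short of the threshold. ARMCX3, a mitochondrial outer membrane protein, has a 28-nt 5' untranslated segment that was at 14.4, 16.2 and 18.2% in controls and 44.1, 39.5 and 47.1% with sgSRSF1. It rose by 27.3 points without overlap (limma adjusted p = 0.0111).

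SEPTIN6, another septin, had controls at 55.3, 51.7 and 53.2% for its 1265-nt 3' untranslated segment and sgSRSF1 libraries at 75.3, 77.7 and 75.3%. It rose by 22.7 points (limma adjusted p = 0.00505), so the 2 septins moved in opposite directions. LUC7L, a U1-associated splicing factor, rose from 27.7 ± 4.65 to 52.2 ± 8.25% (SD, n = 3 each; limma adjusted p = 0.0821). DPY19L4 rose by 23.1 points and XRCC3, a protein of homologous recombination, by 23.2 points. Both started near 0, with 1 control library of each at 0%, and neither passed the adjusted threshold (limma adjusted p 0.294 and 0.226).

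PGM3, an enzyme of hexosamine synthesis, was picked after its values were seen, because it shows a site that the controls did not use. Its 4-nt first-intron segment was at 0% in all 3 controls and at 30.8, 22.4 and 29% with sgSRSF1 (limma adjusted p = 0.00181). A 2220-nt segment of the same gene fell from 100, 98.7 and 100% to 69.2, 75 and 63.4% (limma adjusted p = 0.00362), a fall of 30.3 points beside the rise of 27.4. Both PGM3 segments lie in the same region and end at the same downstream site, so the fall and the rise are not independent. In 4 genes, called events moved in both directions with sgSRSF1. The largest rise in the table, 40.1 points in the zinc-finger gene ZBTB21, rested on 2 treated values, 100 and 92.3%, against controls at 45.2, 62.9 and 60% (limma adjusted p = 0.147).

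**Figure D2:**
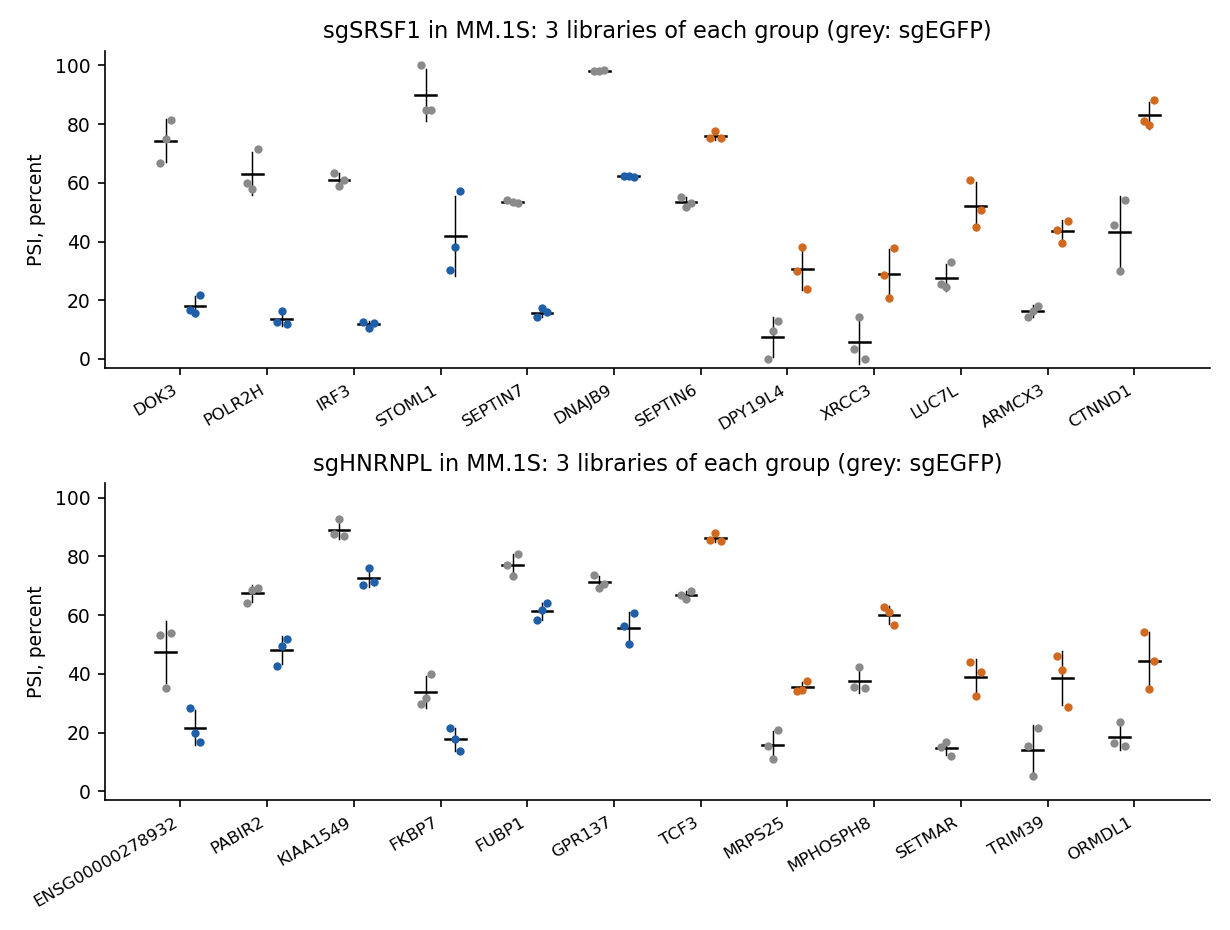
PSI (percent) of the TSS|A3SS events with the 6 largest called falls (blue) and the 6 largest called rises (orange) with sgSRSF1 (upper panel) and sgHNRNPL (lower panel), among events with 3 values in each group, with sgEGFP in grey, 1 point per library, and bars for the group mean ± SD. The sgEGFP and guide libraries of every event drawn are separate, from the 56.3-point fall in DOK3 to the 39.8-point rise in CTNND1. The same holds for every called event with 3 values in each group with these guides.

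With sgHNRNPL in MM.1S, rises outnumbered falls slightly among the called events, and few events passed the adjusted model. It called 3 rises and 2 falls, beside 0.148% and 0.0398% among all 62835 events. TCF3, which encodes the E2A transcription factors of B cell development, contributed 2 nested 3' untranslated segments with the same values. These segments begin at the same upstream site and hold the same separate exon. They were at 66.7, 65.6 and 68.3% in controls and 85.5, 87.9 and 85.3% with sgHNRNPL, a rise of 19.4 points without overlap (limma adjusted p = 0.0291). A 901-nt segment of another TCF3 transcript fell by 12 points with sgHNRNPL (limma adjusted p = 0.103) and by 11 points with sgSRSF1 (limma adjusted p = 0.00362), both measured against the same controls.

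HNRNPR, itself an RNA-binding ribonucleoprotein, had its 3-nt CAG segment at 13.9, 15.7 and 13.6% in controls and at 24.3, 25.4 and 24.6% with sgHNRNPL. The groups were tight and apart, with a rise of 10.4 points (limma adjusted p = 0.0389). The 2 falls past the adjusted threshold, named here after their values were seen, were TSC22D4 (82.8 ± 1.05 to 69.9 ± 0.894%, adjusted p = 0.0252) and USF2, a helix-loop-helix transcription factor (77 ± 0.983 to 65.7 ± 0.834%, adjusted p = 0.0269).

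Larger differences with sgHNRNPL came with wider spreads. The largest rise, 27.7 points in AKAP7, a kinase-anchoring protein, rested on 2 control values, 10 and 0%, against 36.4, 41.7 and 20% (limma adjusted p = 0.547). The largest fall, 25.8 points, was in the uncharacterised ENSG00000278932 (47.5 ± 10.6 to 21.7 ± 6.01%, SD, n = 3 each; limma adjusted p = 0.314). ORMDL1, a regulator of sphingolipid synthesis, had controls at 16.4, 23.6 and 15.3% and sgHNRNPL libraries at 54.4, 34.8 and 44.4%. The treated libraries were all higher but varied with an SD of 9.78 points, and the rise of 26.1 points had a limma adjusted p of 0.238. SETMAR, a histone methyltransferase fused to a transposase, rose by 24.3 points from 14.6 ± 2.38 to 38.9 ± 6.03% (SD, n = 3 each). MPHOSPH8, a reader of methylated histone H3 in the HUSH silencing complex, rose from 37.6 ± 3.97 to 60 ± 3.18%. The MRPS25 event, in a gene for a mitochondrial ribosomal protein, rose by 19.7 points, and a 20-nt TRIM39 event by 24.5 points. Falls included FUBP1, a single-stranded nucleic acid binding protein (77 ± 3.67 to 61.3 ± 2.85%), KIAA1549 (89 ± 3.11 to 72.6 ± 3.08%) and the 3-nt event of FKBP7, a peptidyl-prolyl isomerase of the endoplasmic reticulum (33.8 ± 5.49 to 17.7 ± 3.9%). From SETMAR to FKBP7, the limma adjusted p of these events ran from 0.101 for MPHOSPH8 to 0.475 for TRIM39.

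**Figure D3:**
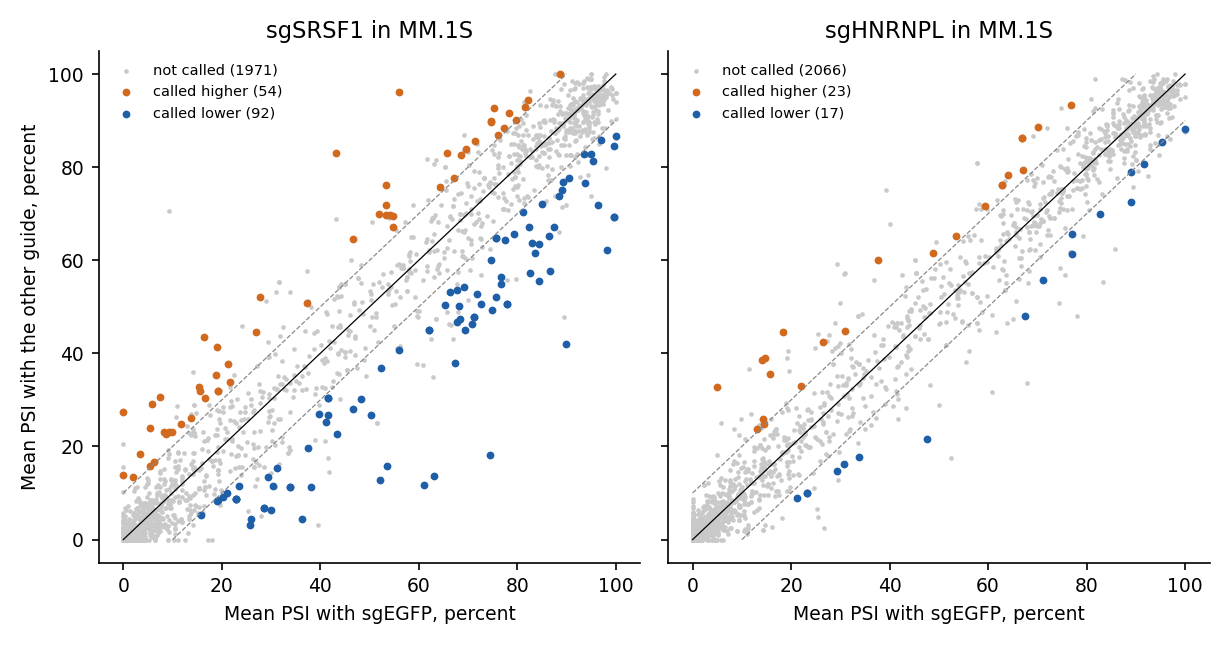
Mean PSI (percent) of each tested TSS|A3SS event in the sgEGFP libraries (horizontal axis) and in the sgSRSF1 or sgHNRNPL libraries (vertical axis), with called rises in orange, called falls in blue, other events in grey, the diagonal as a solid line and differences of 10 points as dashed lines. Both panels use the same 3 sgEGFP libraries, and 54 rises and 92 falls stand off the diagonal with sgSRSF1 against 23 and 17 with sgHNRNPL.

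The called events differed in length and in position from the rest. With sgSRSF1, 72 of 545 tested segments over 200 nt were called (13.2%; 20 rises, 52 falls), against 25 of 651 of 13 to 60 nt (3.84%) and 7 of 226 of up to 3 nt (3.1%). With sgHNRNPL the shares were 27 of 539 (5.01%), 5 of 651 (0.768%) and 4 of 231 (1.73%). Last-intron events were called in 75 of 863 cases with sgSRSF1 (8.69%) and first-intron events in 55 of 1019 (5.4%). Segments that hold a separate exon were called in 9 of 45 cases (20%), and those that lengthen an exon in 121 of 1844 (6.56%). These shares are descriptions without a test, and they move with the starting level: 90 of 528 events with a control PSI of 20 to 80% were called (17%), against 4 of 867 at or under 5% (0.461%). How much of the length difference the starting level carries was not tested.

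**Figure D4:**
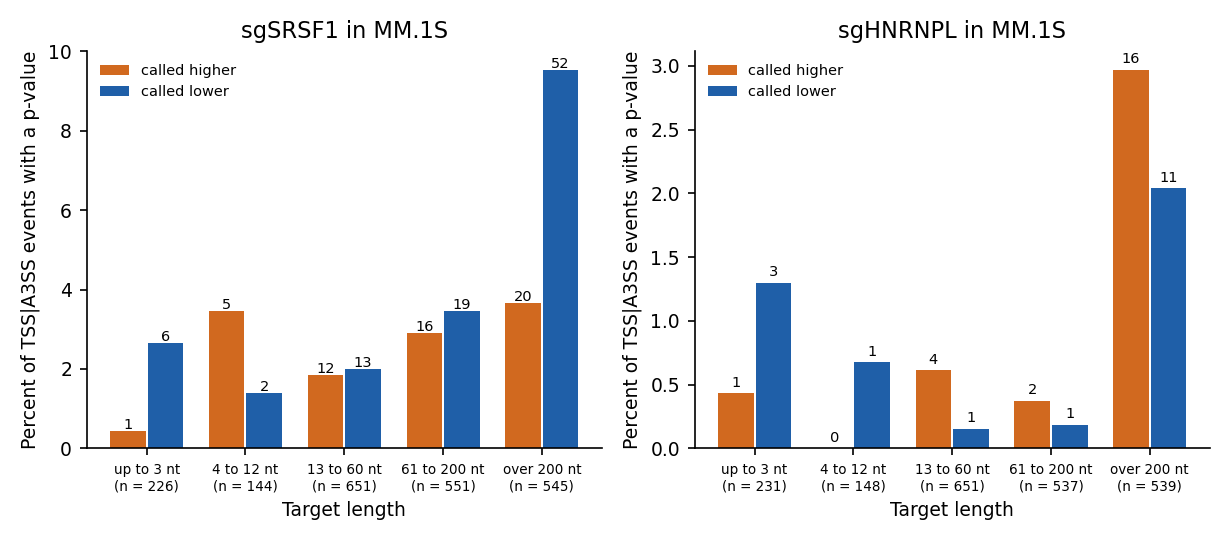
Percent of tested TSS|A3SS events called higher (orange) and called lower (blue) by length of the alternative segment, for sgSRSF1 and sgHNRNPL, each on its own axis from 0, with the number of called events above each bar and the number tested under each class. In the class over 200 nt, 20 rises and 52 falls were called with sgSRSF1 and 16 rises and 11 falls with sgHNRNPL.

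GGAGA, a purine motif of the kind SRSF1 binds, was searched on the transcript strand in 150-base windows of spliced transcript around the upstream junction, 50 bases before it and 100 from it. It was found in 30.7% of all annotated junction windows and in 28.4% of 1710 windows of events tested with sgSRSF1. Among called events it was in 20 of 48 windows of rises (41.7%) and 19 of 75 of falls (25.3%). With sgHNRNPL the counts were 10 of 19 (52.6%) and 4 of 15 (26.7%). CACACA, a CA-repeat motif, was in 4.01% of all junction windows, and in 1 of 19 windows of rises and 1 of 15 of falls with sgHNRNPL. A match is only a match of letters in that window.

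With IL-6 in MM.1S, the largest differences were in CALHM2 and SNX22, both falls. CALHM2, of a calcium-homeostasis channel family, had its 103-nt 5' untranslated segment at 67.6, 51.4 and 57.7% without IL-6 and at 18.2, 9.09 and 28.6% with it. The groups did not overlap, and PSI fell by 40.3 points, the largest fall in this table. SNX22, a sorting nexin, was at 34.9, 35.7 and 39.8% without and 8.96, 9.76 and 14.4% with IL-6, a fall of 25.8 points with tight groups. However, the sgEGFP libraries shared by sgSRSF1 and sgHNRNPL, also given IL-6 for 24 h, had a mean SNX22 PSI of 41.3%. The means in the IL-6 comparison were 36.8% without and 11.1% with it, and the reason was not tested. SNHG1, a host gene of small nucleolar RNAs, fell by 22.4 points from 53.6 ± 2.95 to 31.2 ± 1.38% (SD, n = 3 each).

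Rises with IL-6 in MM.1S included KDM2B, a histone demethylase, whose 343-nt segment went from 35.9, 34.8 and 25.5% to 55.1, 54 and 53.4%. MYEOV, a gene known for overexpression in myeloma, was at 29.2, 24 and 30.6% without and 57.6, 43.2 and 46.4% with IL-6. PABIR2, of a family of protein phosphatase 2A inhibitors, had 64.1, 63.4 and 53.4% without and 79.4, 82.9 and 79.8% with IL-6. None of these 3 overlapped between groups, and the rises were 22.1, 21.2 and 20.4 points. The IL-6-treated sgEGFP libraries shared by sgSRSF1 and sgHNRNPL had means of 30% for KDM2B, 28.5% for MYEOV and 67.4% for PABIR2. Means without and with IL-6 were 32.1 and 54.2% for KDM2B, 27.9 and 49.1% for MYEOV, and 60.3 and 80.7% for PABIR2. For PABIR2 the sgEGFP libraries of MM.1S had 81.1% beside sgPOU2AF1 and 80.6% beside sgELL2. Why these control sets differ was not tested. MARF1, an RNA-binding regulator of mRNA stability, rose from 3.33 ± 2.27 to 20.6 ± 4.3%.

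In INA-6, falls outnumbered rises with IL-6. The 3-nt CAG of ZSCAN5A, a zinc-finger gene, had PSI 68.2, 63.6 and 73.1% without IL-6 and 53.8, 48.3 and 52% with it, a fall of 16.9 points without overlap. SKP2, the substrate-recognition subunit of an SCF ubiquitin ligase that targets the cell cycle inhibitor p27, was at 81.6, 74.8 and 76.8% without and 64.7, 60.2 and 62% with IL-6 for its 2022-nt last-intron segment. It fell by 15.4 points, again without overlap. TCF19, a growth-related nuclear protein, rose from 69, 68.7 and 68.3% to 80.7, 81.3 and 82%, a difference of 12.7 points that was large beside SDs of 0.352 and 0.638. CRACR2B, a regulator of calcium entry, rose by 15.9 points and ERMAP, a butyrophilin-like membrane protein, by 14 points.

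The 3-nt REPIN1 segment, in a zinc-finger gene known for a role in replication initiation, was called in both lines with IL-6. MM.1S libraries had 36.8, 35.7 and 33.8% without and 21.8, 26.6 and 23.3% with IL-6. INA-6 libraries had 53.4, 52.3 and 50.5% without and 41.5, 43.1 and 38.4% with it. The falls were 11.5 and 11.1 points, with a limma adjusted p of 0.465 for the difference between lines. However, the sgEGFP libraries of MM.1S, also given IL-6, had REPIN1 means of 34.7% beside sgPOU2AF1 and 29.4% beside sgSRSF1. Those of INA-6 had 50% beside sgPOU2AF1. Means without and with IL-6 were 35.4 and 23.9% in MM.1S and 52.1 and 41% in INA-6, and the reason was not tested. REPIN1 is named here after its values were seen. Across all 8 comparisons, 28 calls were of 3-nt segments, in 25 distinct events.

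With sgPOU2AF1 in MM.1S, the largest fall was in FCMR, which encodes the Fc receptor for IgM. Its 55-nt 5' untranslated segment was at 64.7, 38.5 and 50% in controls and at 12.5, 25.4 and 11.1% with sgPOU2AF1. The controls spread widely, yet stayed above every treated library, and the fall was 34.7 points. The 3-nt AAG of PTBP2, a polypyrimidine tract-binding splicing repressor, was at 38.5, 35.7 and 53.8% in controls and 70.6, 66.7 and 66.7% with sgPOU2AF1, a rise of 25.3 points. ZNF417, a zinc-finger gene with a closely similar paralog whose reads the authors' counting could have split, rose by 23.5 points, and CRAT, carnitine acetyltransferase, fell by 19.6 points.

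With sgELL2 in MM.1S, NAP1L4, a histone chaperone, rose from 6.12, 9.76 and 7.32% to 21.4, 18.2 and 25%, without overlap between the groups. CHAMP1, a chromosome alignment protein, rose at a 3-nt event from 56.5 ± 1.73 to 70.2 ± 2.3% (SD, n = 3 each). With sgELL2 in MM.1S the other 2 called CHAMP1 events, with identical values and lengths of 1725 and 1728 nt, fell by 12.6 points from 33.7 ± 4.4 to 21.1 ± 2.99%, and both fell by 13.2 points with sgHNRNPL (limma adjusted p = 0.418). An event of the uncharacterised ENSG00000262879 fell by 27.3 points.

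In INA-6 the sgPOU2AF1 and sgELL2 tables share their 3 sgEGFP libraries, so a gene's values in both are given side by side and not as independent. TRMT10A, a tRNA methyltransferase, had control PSI 42.3, 55.3 and 38.9%, against 60, 78.6 and 80.6% with sgPOU2AF1 and 63.3, 60 and 67.9% with sgELL2. Both guides were above all controls, by 27.6 and 18.2 points on average. URI1, a prefoldin-like chaperone, had controls at 43.1, 47.8 and 46.3%, sgPOU2AF1 libraries at 64.2, 61.2 and 61% and sgELL2 libraries at 58.5, 56.9 and 59.3%. The rises were 16.4 and 12.5 points, without overlap in either table.

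Other falls with sgPOU2AF1 in INA-6 were in ERI2 (60.3 ± 4.69 to 39.3 ± 8.17%, SD, n = 3 each), in PIGQ, an enzyme of GPI anchor synthesis, by 19.9 points, and in SSH3, a slingshot phosphatase, by 18.4 points. With sgELL2 in INA-6, BCL2L1, which encodes the apoptosis regulators BCL-XL and BCL-XS, had an 18-nt event at 35.3, 35 and 30% in controls and 50, 42.9 and 57.1% with sgELL2. It rose by 16.6 points, and every treated library was above every control. TMEM104 also rose by 16.6 points, and SLC24A1 fell by 17.8 points. ARMCX3 fell by 20.2 points at the 28-nt segment named with sgSRSF1, but joined to another upstream exon. Joined as in the sgSRSF1 event, that segment differed by only -2.85 points with sgELL2 in INA-6 and was not called.

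Only 2 events were called in 4 comparisons, the most of any, and they were in IRF3 and SKP2. The IRF3 event of the second transcript fell in all 4. Beside its fall with sgSRSF1, it went from 62, 70.6 and 61.7% to 51.2, 45.7 and 50% with IL-6 in MM.1S, a fall of 15.8 points. The IL-6-treated sgEGFP libraries of MM.1S had means of 52.2% beside sgSRSF1 and 66.5% beside sgPOU2AF1, against 48.9% with IL-6 there. In INA-6 the shared controls were at 79.8, 85.6 and 87.7%, the sgPOU2AF1 libraries at 70.3, 68.6 and 70.3% and the sgELL2 libraries at 72.4, 67 and 73.5%, falls of 14.6 and 13.4 points. The IRF3 groups did not overlap in any of the 4. SKP2 moved in both directions: it fell by 15.4 points with IL-6 in INA-6 and rose by 12.9 points with sgELL2 in MM.1S, by 11.5 with sgELL2 in INA-6 and by 12.8 with sgHNRNPL (limma adjusted p = 0.304). Its sgSRSF1 libraries, at 41.9, 31.7 and 42.3%, lay below the shared controls at 51.2, 45.2 and 50%, a difference of -10.1 points that was not called. URI1 fell by 13.4 points with IL-6 in INA-6, against its rises with both guides there.

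TCF19 rose by 12.7 points with IL-6 in INA-6, fell by 11.5 with sgPOU2AF1 in INA-6 and fell by 19 with sgSRSF1 (limma adjusted p = 0.17). PABIR2 rose with IL-6 in MM.1S and fell against the shared controls (64.1, 68.7 and 69.4%) with sgSRSF1 (40.8, 37.5 and 35.7%) and with sgHNRNPL (42.7, 49.6 and 51.9%). The sgSRSF1 fall of 29.4 points had a limma adjusted p of 0.00893 and the sgHNRNPL fall of 19.3 points one of 0.145. MPHOSPH8 rose by 22.4 points with sgHNRNPL (limma adjusted p = 0.101) and fell by 18 with sgSRSF1 (limma adjusted p = 0.136). SEPTIN6 rose by 11.7 points with sgHNRNPL (limma adjusted p = 0.103) and by 22.7 with sgSRSF1 (limma adjusted p = 0.00505).

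**Figure D5:**
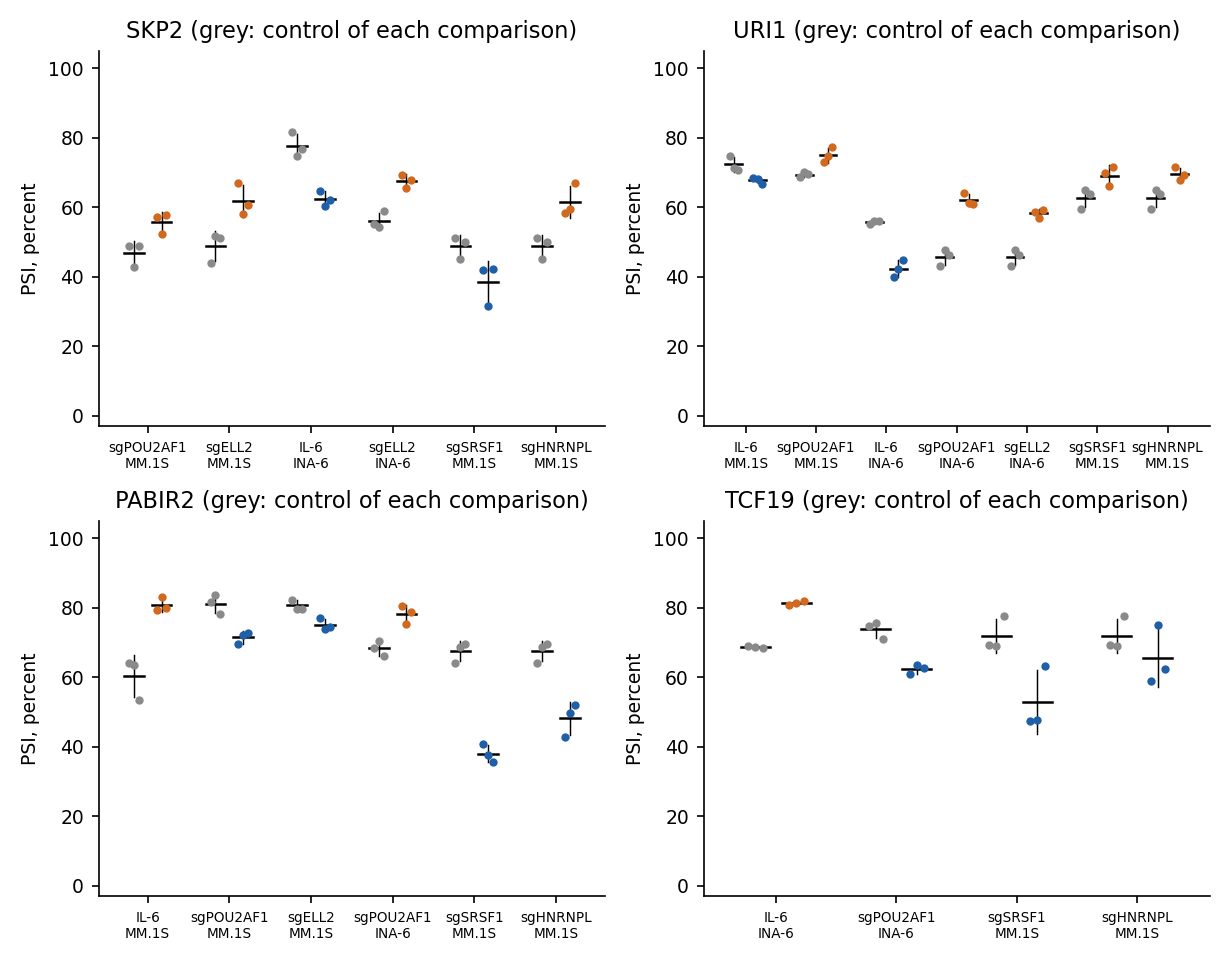
PSI (percent) of the SKP2, URI1, PABIR2 and TCF19 events in each comparison that lists them, with 1 point per library and bars for the group mean ± SD, the control of each comparison in grey and the treated libraries in orange where their mean was higher and in blue where it was lower, called or not. SKP2 was lower with IL-6 in INA-6, by 15.4 points, and higher with sgELL2 in both lines, by 12.9 points in MM.1S and 11.5 in INA-6.

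IL-6 and the guides of INA-6 use different control libraries, and both sets list events selected by p. Of 26 TSS|A3SS events listed with a p-value for both IL-6 and sgPOU2AF1 in INA-6, 21 had opposite signs, as had 610 of 830 over all event types. For IL-6 and sgELL2 in INA-6 it was 13 of 14, and 280 of 379 over all types. For IL-6 in the 2 lines, 22 of 32 TSS|A3SS events had the same sign, and 479 of 667 of all types.

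The cell lines were compared with a line-by-treatment term in limma over the events listed in both lines, which were selected by p in each. For IL-6, 20 of 33 TSS|A3SS events passed an adjusted p of 0.05, beside 45.1% of 690 events of all types, and 10 of the 20 had opposite signs in the 2 lines. For sgPOU2AF1 it was 8 of 13, beside 33.4% of 632, with 5 opposite. For sgELL2 it was 2 of 6, beside 35.5% of 220, both opposite. SKP2 with sgELL2 rose by 12.9 points in MM.1S and 11.5 in INA-6, and the term's adjusted p was 0.978.

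Gene lists relevant to these cells were read against all 1982 genes with a TSS|A3SS event, of which 253 (12.8%) had one called in any comparison, with 1.39 events per gene. Of 69 splicing regulators, 21 had a TSS|A3SS event and 8 a called one (38.1%, with 1.62 events per gene), which were CELF1, HNRNPA3, HNRNPD, HNRNPR, LUC7L, PTBP2, SRSF10 and U2AF1L4. The share is above that of all genes and was not tested. HNRNPA3, an hnRNP of the A/B type, fell from 89.3, 88.3 and 89.6% to 75.9, 73.9 and 75.6% with sgSRSF1 (limma adjusted p = 0.00377), and to 77.7, 81.3 and 77.7% with sgHNRNPL (limma adjusted p = 0.063), both against the same controls. The HNRNPA3 segment, of 2652 nt, holds a separate exon. SRSF10, an SR protein, rose from 59.3 ± 0.66 to 71.7 ± 2.12% with sgHNRNPL (limma adjusted p = 0.0714). HNRNPD fell by 20.7 points with sgSRSF1 (limma adjusted p = 0.051), and CELF1 rose by 10.7 points with sgELL2 in INA-6. U2AF1L4, a paralog of the small U2AF subunit, fell by 11.9 points with sgPOU2AF1 in MM.1S. Over the list with sgSRSF1, 1 of 29 tested events was called as a rise and 2 as falls, beside 1.84% and 3.91% over all events. The median difference was -0.05 points, beside -0.06 over all events.

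Of 42 B cell and plasma cell genes, 11 had an event and FCMR and TCF3 a called one (18.2%). Of 43 genes of IL-6, JAK-STAT and interferon signalling, 10 had an event and IRF3 and STAT3 a called one (20%). Each of these shares rests on 2 genes. STAT3, the main transcription factor activated by IL-6, had 2 nested 5' untranslated segments of 22 and 19 nt with the same values, at 37.2, 45.1 and 42.2% in controls and 27.6, 33.9 and 29.6% with sgSRSF1. They fell by 11.1 points without overlap (limma adjusted p = 0.123), and STAT3 was not among the listed events for IL-6 in either line. With sgSRSF1, 4 of that list's 13 tested events fell and none was called as a rise, with a median of -2.61 points, beside 3.91% called falls and a median of -0.06 points over all events. The 4 falls were 2 IRF3 events that share a segment and the 2 nested STAT3 events, so 2 genes carry the count.

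Of 55 apoptosis and cell cycle genes, 14 had an event and BCL2L1 alone a called one (7.14%). Of 44 genes of the endoplasmic reticulum and secretion, 8 had an event and 1 a called one (12.5%): SEC13, a COPII coat protein, fell with sgSRSF1 from 81.2 ± 1.09 to 70.4 ± 1.6% (SD, n = 3 each; limma adjusted p = 0.0155). Of 32 genes known for alternative promoters, 6 had an event and CREM a called one (16.7%). Of 60 elongation and chromatin genes, 11 had an event and none was called by the deposited rule or by limma, with 3 events at an unadjusted deposited p under 0.05 that differed by at most 8.18 points.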

How the data were processed

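PSI values per library, in percent, and 1 p-value per event are the authors' deposited values for 8 comparisons, per the file headers. The submitters' processing notes name GRCh38, STAR 2.7.10b and SAMtools 1.19.2, and neither the splicing caller nor its filters were given in the sources used here. The deposited p-values are headed as a false discovery rate, but an unequal-variance test recomputed from the 3 and 3 PSI values matched every one within 1%, so they are unadjusted. The 2 complete tables list every event tested, and the other 6 only events with p under 0.05, plus constant ones in INA-6.

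Differences in PSI were computed as treated minus control means. For the complete tables, limma 3.58.1 (R 4.3.3) was fitted to the logit of PSI clipped at 1 and 99%, with at least 2 values per group, across all events with Benjamini-Hochberg adjustment, each guide against its own sgEGFP libraries. The line-by-treatment term was fitted over events listed in both lines. The calculations were tested on simulated data. Events were placed on GENCODE 29 transcripts, whose sequences are on GRCh38.

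The events named were, of those with 3 values in each group and 1 per gene, the 6 largest called differences in each direction in a complete table and 4 in each other table, those called in most comparisons (up to 12 called in at least 2), and called events of the gene lists, with other events marked as chosen after their values were seen. One event that this rule names is not reported here. Members and lists were chosen with earlier results of these data known. In the complete tables, 312 and 303 TSS|A3SS events had a constant PSI and no p-value. A clipped logit gives low spread to events near 0 or 100%. No sample was left out, although an event can lack a value in a library. Depth behind each PSI is unknown. Columns of per-sample values not used numbered 0. Alternatives were a threshold of 5 or 20 points, limma on the listed events, other clipping, PSI in points, and leaving out each value.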

Additional observations from a re-analysis of the deposited data

Results flagged for a closer look

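In 30 TSS|A3SS events, all that passed, the difference in PSI was not the same in MM.1S and INA-6, by the line-by-treatment term of limma with Benjamini-Hochberg adjustment over the events listed in both lines. All rest on 3 libraries per group unless stated, and since events entered only with p under 0.05 in each line or with constant PSI, they are not a sample of all events. Of the 30, the events called or named in the results come first, and the others, which stayed under 10 points in both lines, follow.

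With IL-6, ORMDL1 differed by 8.91 points in MM.1S and by -6.1 in INA-6 (adjusted p = 4.69e-05), although neither reached 10 points. SNHG1 fell by 22.4 points in MM.1S and differed by -6.73 in INA-6 (adjusted p = 0.000822). SNX22 fell by 25.8 points in MM.1S and by 12 in INA-6 (adjusted p = 0.00219), so the same direction was called in both lines with unequal size. RFXANK, a subunit of the RFX complex that drives MHC class II genes, fell by 11.9 points in MM.1S and differed by -2.52 in INA-6 (adjusted p = 0.00256).

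URI1 with IL-6 differed by -4.65 points in MM.1S and fell by 13.4 in INA-6 (adjusted p = 0.0116). ABHD14B rose by 10.7 points in MM.1S and differed by 4.14 in INA-6 (adjusted p = 0.0295). FUBP1 differed by -1.66 points in MM.1S and by -3.77 in INA-6 (adjusted p = 0.0326).

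With sgELL2, the 82-nt first-intron segment of DOK3 rose by 19.2 points in MM.1S, from 2 values in each group (70.6 and 66.7% against 85.7 and 90%), and differed by -4.51 in INA-6 (adjusted p = 0.00147). With sgPOU2AF1, PABIR2 differed by -9.65 points in MM.1S and 9.8 in INA-6 (adjusted p = 0.00104). ZNF778, a zinc-finger gene, fell by 10.3 points in MM.1S and rose by 13.6 in INA-6 (adjusted p = 0.00402), the TSS|A3SS event called in opposite directions in the 2 lines. Its sgEGFP libraries of MM.1S had a mean PSI of 57.9% beside sgPOU2AF1. Beside sgSRSF1 they had 43.8 and 31.2%, with a value missing, and why these control sets differ was not tested. URI1 differed by 5.54 points in MM.1S and rose by 16.4 in INA-6 (adjusted p = 0.0124). The sgEGFP libraries of INA-6 serve both guides there.

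The other events with IL-6 were these. A CDV3 event differed by -4.74 points in MM.1S and 4.83 in INA-6 (adjusted p = 0.000257), and another CDV3 event by 2.75 and -4.62 (adjusted p = 0.000755). CHTF8, a subunit of an alternative clamp loader, differed by -6.41 and 6.52 points (adjusted p = 0.00142). TRPT1, a tRNA phosphotransferase, differed by -9.79 and 8.89 points (adjusted p = 0.00467), and C12orf4 by -4.28 and 8.53 (adjusted p = 0.0164). PAXX, a factor of DNA end joining, differed by -8.66 and -2.18 points (adjusted p = 0.0405), and SGSM2 by 4.98 points in MM.1S and 0 in INA-6 (adjusted p = 0.00469).

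The remaining events with IL-6 differed by under 4 points in each line. The adjusted p was 6.81e-05 for UQCRB (0.3 and 3.32 points), 0.000371 for NDUFB5 (0.9 and -0.6), 0.000757 for RANBP1 (1.13 and -3.12), 0.00121 for GGA2 (-0.4 and 0.45), 0.00479 for EIF3M (1 and 0.34) and 0.0066 for SURF4 (0.61 and -0.25).

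With sgELL2, ZBP1, a sensor of Z-form nucleic acids, differed by -8.53 points in MM.1S and 6.81 in INA-6 (adjusted p = 0.0081). With sgPOU2AF1, REPIN1 differed by 9.83 and 3.27 points (adjusted p = 0.00744), and SBF2 by -5.28 points in MM.1S and 0 in INA-6 (adjusted p = 3.91e-08). The INA-6 values of SBF2, and those of SGSM2 with IL-6, were constant. Constant values add no spread to the fit, which can lower the p-value. FDPS, an enzyme of isoprenoid synthesis, differed by -3.12 and 1.88 points (adjusted p = 0.00161), HNRNPK by -2.08 and 0.88 (adjusted p = 0.00352), and CDCA3 by 1.28 and -4.8 (adjusted p = 0.0121).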

How the results depend on the processing

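Counts of called TSS|A3SS events depended on the size asked for and on single values. At 5 in place of 10 points the counts became 98, 48 and 40 for IL-6, sgPOU2AF1 and sgELL2 in MM.1S, 57, 72 and 51 in INA-6, and 75 with sgHNRNPL. At 20 points they were 11, 4 and 2, then 0, 3 and 4, and 51 with sgSRSF1 and 6 with sgHNRNPL. With limma on the listed events in place of the deposited p, the counts were 7 for IL-6 and 2 for sgELL2 in INA-6, 60 with sgSRSF1 and 5 with sgHNRNPL. The limma count with sgSRSF1 was 97 at 5 points and 19 at 20 points. With sgHNRNPL it was 0 at 20 points, 8 when clipping nearer to 0 and 100%, 11 in a fit of all 3 groups with shared controls, and 3 over events that vary after clipping, an alternative chosen after seeing the data.

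Leaving out 1 value per event at a time, by its place in the deposited list, gave 18 to 26 called events for IL-6, 9 to 18 for sgPOU2AF1 and 7 to 13 for sgELL2 in MM.1S, and 7 to 19, 12 to 16 and 8 to 16 in INA-6. It gave 90 to 118 with sgSRSF1 and 30 to 40 with sgHNRNPL, and by limma 28 to 38 and 0 to 4. The sgSRSF1 count was lowest without the third treated value (90) and without the first (97), the only ones to move it over 1.5 times, and no value moved the sgHNRNPL count that far. Every value did so for IL-6 in MM.1S, sgELL2 in INA-6 and the limma count with sgSRSF1. So did all but the third treated value for sgELL2 in MM.1S and all but the second treated value for the limma count with sgHNRNPL, which reached 0 without the first control value, where the deposited rule still called 38. Control values 1 to 3 and treated value 1 did so for sgPOU2AF1 in MM.1S, values 1 and 2 of both groups for it in INA-6, and control values 2 and 3 and treated values 1 and 3 for IL-6 in INA-6. Of 112 named calls, 12 held whichever value was left out (SNX22 with IL-6 in MM.1S, TCF19 with IL-6 and URI1 with sgPOU2AF1 in INA-6, 2 nested TCF3 events with sgHNRNPL, and TCF3, IRF3, HNRNPA3, DNAJB9, SEPTIN7, SEPTIN6 and PABIR2 with sgSRSF1). The other 100 lost the call in at least 1 such run, and none changed sign; with fewer libraries the test also has less power. The cause of the other shifts was not tested. No paired analysis was possible because the value columns carry no replicate numbers.

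No read counts were listed, so an event resting on few reads cannot be told from a well covered one. The 6 selected tables cannot show how many events did not change.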

Other observations

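Several other events, chosen after their values were seen, were called with sgSRSF1 and in another comparison. RFXANK fell by 20.9 points with sgSRSF1 (from 68.3 ± 2.1 to 47.4 ± 2.9%, SD, n = 3 each; limma adjusted p = 0.0148), beside its fall of 11.9 points with IL-6 in MM.1S. ZNF776, a zinc-finger gene, fell by 21.2 points with sgSRSF1 and rose by 12.9 with sgPOU2AF1 in INA-6. PGAP2, a protein of GPI anchor remodelling, rose from 51.9 ± 3.66 to 70 ± 2.81% with sgSRSF1 and fell by 10.6 points with IL-6 in INA-6. ALAS1, the first enzyme of heme synthesis, rose by 15.2 points with sgSRSF1 at an 11-nt first-intron segment and fell by 12.3 with IL-6 in INA-6. MIAT, a long non-coding RNA, rose by 13.4 points with IL-6 in MM.1S and had sgSRSF1 libraries at 26.5, 33.3 and 31.1%, below its controls at 47.5, 55.4 and 42%. By limma with sgSRSF1, PGAP2 passed (adjusted p = 0.0352), and ZNF776, ALAS1 and MIAT did not (adjusted p 0.152, 0.0526 and 0.0994).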
